A study of Homo sapiens with 4 samples.

Results

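The genes of MHC class I antigen presentation were followed in HepG2, a human hepatocellular carcinoma cell line, as 9 members among the 24462 genes of the deposited count tables. The members were HLA-B, HLA-C, HLA-E, B2M, TAP1, TAP2, TAPBP, PSMB8 and PSMB9. They were found by their gene symbols, and the counts of a symbol listed more than once were added. All 9 were listed, 8 of them on several entries, but in each case only 1 entry held reads. The series compared cells given PD-0332991, a small-molecule inhibitor of the cell cycle kinases CDK4 and CDK6, with cells given its solvent DMSO, and cells transfected with siRNA against CDK4 and CDK6 (CDK4/6 knockdown) with cells transfected with scrambled siRNA (SC). All 4 cultures were of the same cell line in the same serum-containing medium, with no interferon named among the agents, and each condition had 1 library. How much PD-0332991 was given, for how long, and when the transfected cells were collected is not stated in the sources used here. RNA was measured by QuantSeq, a 3′ mRNA sequencing method in which each transcript is read near its poly(A) end, and the results text of the study calls the experiment a microarray while its methods and the labels describe sequencing.

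MHC class I molecules display short peptides from proteins made inside a cell to CD8 T cells, and HLA-E is also read by receptors of natural killer cells. Proteasomes cut the proteins, the TAP transporter carries the peptides into the endoplasmic reticulum, tapasin helps to load them, and the heavy chain leaves for the surface only together with beta-2 microglobulin. Interferon raises nearly all of these genes by way of IRF1 among others, and NLRC5, a transactivator of class I genes, acts through the conserved promoter boxes that these genes share. Liver tumours can lower this machinery, and the level of class I on tumour cells limits what T cells can see.

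On GRCh38 (GENCODE 29), 8 members lie in the MHC region of chromosome 6 and B2M lies on chromosome 15 (44711487 to 44718877, plus strand). HLA-C (31268749 to 31272130) is annotated on the minus strand beside HLA-B, whose main transcript spans 31353872 to 31357187 on the same strand. HLA-E (30489467 to 30494205) is on the plus strand, and TAPBP (33299694 to 33314387) on the minus strand. TAP2 (32821833 to 32838780), PSMB8 (32840717 to 32844703), TAP1 (32845209 to 32853978) and PSMB9 (main transcript 32854161 to 32859585) stand side by side, with PSMB9 alone on the plus strand. TAP1 and PSMB9 are read away from each other, with 487 bases between their RefSeq starts. The authors aligned to hg19, so these positions are given for orientation only.

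The promoters of the heavy chains, B2M, TAP1, PSMB9 and TAPBP are shown because NLRC5 and IRF1, whose own counts are given below, are known to act at such elements. RefSeq (GRCh38.p14) held a promoter entry for 8 of the 9 members, all but HLA-E. In the 250 bases before the start, both strands were searched for the letters AANNGAAA (core of the interferon regulatory factor element), TGACG (core of the X2 box) and CCAAT (core of the Y box), and capitals mark the matches. The stretches shown are chr6:31357223-31357342 (minus strand, HLA-B), chr6:31272136-31272292 (minus, HLA-C), chr15:44711367-44711480 (plus, B2M), chr6:32853817-32853954 (minus, TAP1), chr6:32853942-32854060 (plus, PSMB9) and chr6:33314079-33314104 (minus, TAPBP), each written 5′ to 3′ towards the gene.
HLA-B: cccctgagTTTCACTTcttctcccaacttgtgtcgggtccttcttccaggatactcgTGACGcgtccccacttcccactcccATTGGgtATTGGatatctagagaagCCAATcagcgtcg
HLA-C: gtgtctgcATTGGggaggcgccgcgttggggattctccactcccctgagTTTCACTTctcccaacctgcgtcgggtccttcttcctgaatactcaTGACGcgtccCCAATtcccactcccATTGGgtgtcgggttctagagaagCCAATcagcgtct
B2M: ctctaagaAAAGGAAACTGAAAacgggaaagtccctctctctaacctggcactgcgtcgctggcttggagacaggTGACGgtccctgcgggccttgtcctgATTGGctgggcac
TAP1: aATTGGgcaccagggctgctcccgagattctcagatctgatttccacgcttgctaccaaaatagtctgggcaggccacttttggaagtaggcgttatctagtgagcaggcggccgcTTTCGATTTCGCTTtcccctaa
PSMB9: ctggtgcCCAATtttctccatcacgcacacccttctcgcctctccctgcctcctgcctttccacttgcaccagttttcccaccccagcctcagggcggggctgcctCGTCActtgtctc
TAPBP: ttggaggaAAGTGAAAGTGAAAggag

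HLA-B, HLA-C and B2M held all 3 cores, with the interferon element before the X2 box and a CCAAT nearest to the gene, and HLA-C had 1 more CCAAT ahead of them all. Of all 35116 promoters of this length, 20.3% held AANNGAAA, 21.2% TGACG, 32.0% CCAAT and 1.19% all 3. The HLA-B and HLA-C promoters were 89.0% identical over 254 aligned positions, against 47.3% for HLA-B and B2M. TAP1 had 2 overlapping interferon elements and TAPBP had 2 overlapping ones next to its start. TAP2 had 2 interferon elements and TGACG, and PSMB8 had TGACG alone before its outermost start and no match before its other start. The CCAAT of TAP1 and that of PSMB9 are the same letters, chr6:32853949-32853953, lying between their RefSeq starts. A match is a description of letters only, and binding was not measured.

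The libraries held between 8983848 and 11176880 reads. CPM is the count of a gene per 1000000 reads after TMM scaling of library size, and a fold is the ratio of 2 libraries after adding 0.5 reads to each, with an exact 95% Clopper-Pearson interval on the split of the reads. Such intervals cover counting error only, speak of libraries rather than conditions, and treat PCR duplicates as separate molecules, as no molecular identifiers are named. With 1 library a condition there was no replicate check, no test and no p-value, and SC against DMSO shows how far 2 libraries without CDK4/6 inhibition differed. The targeted genes were low where the labels say so. CDK4 was at 354 CPM in SC and 71.9 in CDK4/6 knockdown (fold 0.203, interval 0.188 to 0.219), and CDK6 was at 536 and 129 CPM (fold 0.241, interval 0.228 to 0.256). All 10 hepatocyte markers were counted in every library. In CDK4/6 knockdown against SC, 9 of them had an interval above 1 and 1 below, beside 30.0% and 31.9% of all genes. In PD-0332991 against DMSO, 7 were above 1 and 3 below, beside 28.1% and 28.6%. The defining immune markers CD3E, CD2 and TYROBP were at 0 in every library and PTPRC had at most 2 reads, while LYZ made up most of the summed immune list. The summed level of 24 keratinocyte markers was 73.2 CPM in DMSO, 184 in PD-0332991, 64.8 in SC and 111 in CDK4/6 knockdown, with TP63 at 1 read or 0 throughout and KRT5, KRT14 and KRT6A at 113, 249 and 150 reads in PD-0332991. KRT10 alone made up 66.3 CPM of that sum in DMSO and 48.0 in SC. Of the keratinocyte markers tested against DMSO, 11 of 12 were at least 2-fold higher in PD-0332991, beside 7.49% of all genes. In SC 7 of 9 were (all genes 5.30%) and in CDK4/6 knockdown 6 of 8 (all genes 1086 of 13512). Against SC, 3 of 9 were so in CDK4/6 knockdown (all genes 9.19%). Testing needed 10 reads in either library, and KRT5, KRT14 and KRT6A had 2, 9 and 9 reads in DMSO. Such markers were tested only because the other library reached 10 reads, so these counts cannot tell how many of the 24 were higher. The summed fibroblast and endothelial markers were at 48.5, 78.4, 9.07 and 23.1 CPM in DMSO, PD-0332991, SC and CDK4/6 knockdown, mostly COL1A1. The part of such transcripts in the class I values below was not tested. In bulk RNA, fewer cells of a type and less RNA per cell cannot be told apart.

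HLA-B and HLA-C, which encode classical heavy chains, were higher in both libraries with CDK4/6 inhibition than in both controls. HLA-B had 1054 reads (115 CPM) in DMSO, 1328 (146 CPM) in PD-0332991, 1211 (113 CPM) in SC and 1751 (155 CPM) in CDK4/6 knockdown. Its fold was 1.37 (interval 1.27 to 1.47) in CDK4/6 knockdown against SC and 1.26 (1.17 to 1.37) in PD-0332991 against DMSO. The 2 control libraries were close for HLA-B, with a fold of 0.981 (0.903 to 1.07) of SC to DMSO. HLA-C had 795 reads (87.0 CPM) in DMSO, 982 (108 CPM) in PD-0332991, 810 (75.7 CPM) in SC and 1202 (106 CPM) in CDK4/6 knockdown. Its folds were 1.40 (1.28 to 1.54) in CDK4/6 knockdown and 1.24 (1.13 to 1.36) in PD-0332991, and SC was lower than DMSO at 0.870 (0.788 to 0.961). Both genes kept intervals above 1 when each inhibited library was set against the control of the other arm. For CDK4/6 knockdown against DMSO the folds were 1.34 for HLA-B and 1.22 for HLA-C, and for PD-0332991 against SC they were 1.29 and 1.42. The difference between the 2 arms was not tested.

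HLA-E, the heavy chain that presents signal peptides of other class I molecules to NKG2 receptors, stood out in the PD-0332991 library alone. It had 531 reads (58.1 CPM) in DMSO, 940 (103 CPM) in PD-0332991, 513 (47.9 CPM) in SC and 592 (52.3 CPM) in CDK4/6 knockdown. The fold of PD-0332991 to DMSO was 1.78 (1.60 to 1.98), and against SC it was 2.15 (1.93 to 2.40). In CDK4/6 knockdown the fold was 1.09 (0.968 to 1.23) against SC and 0.900 (0.799 to 1.01) against DMSO, so that its side of 1 turned with the control and both intervals included 1. SC was lower than DMSO for HLA-E at 0.825 (0.729 to 0.933).

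**Figure D1:**
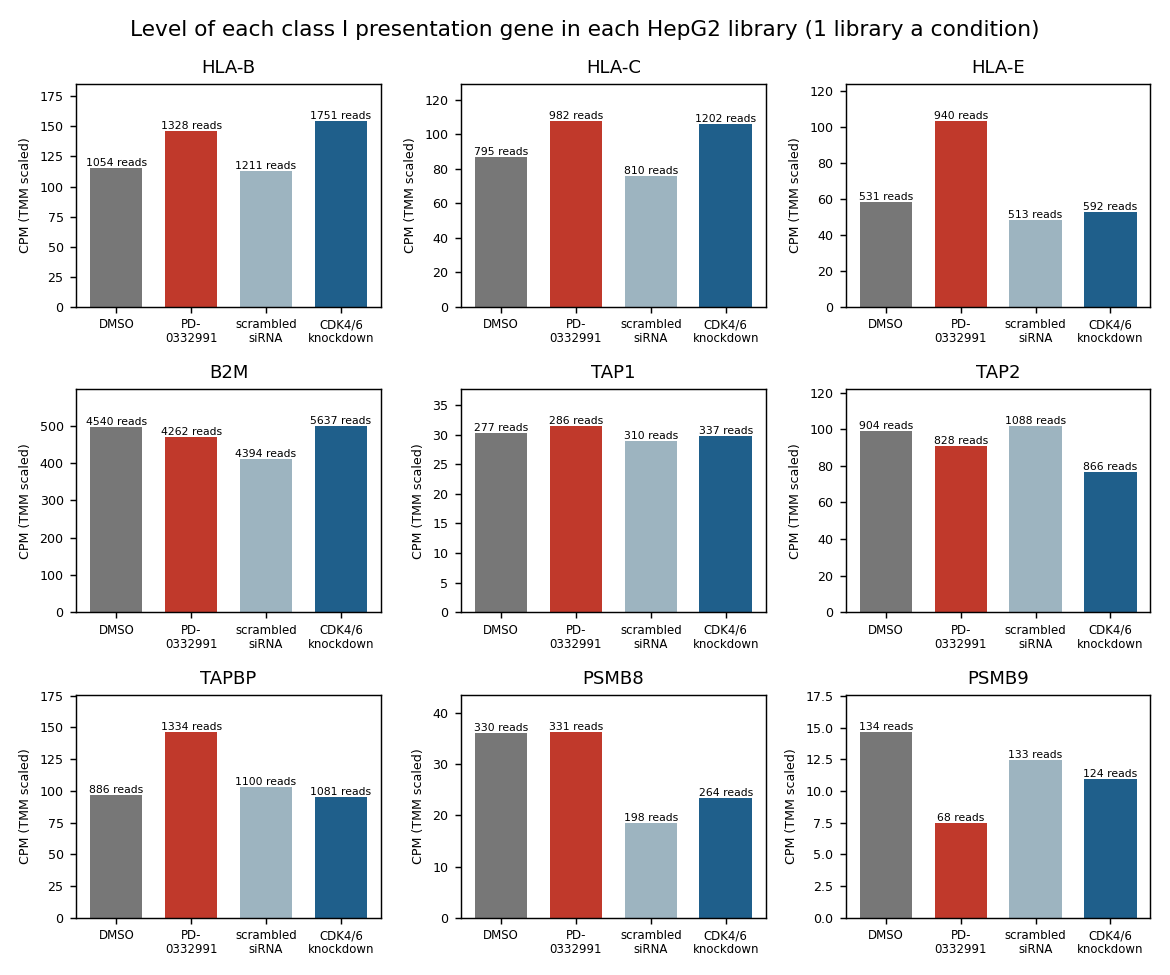
Level of each of the 9 genes in CPM (y axis from 0, its own scale for each gene) in the 4 libraries (x axis), with the reads behind each bar written above it. HLA-B and HLA-C are highest in the libraries with CDK4/6 inhibition, HLA-E and TAPBP are highest in PD-0332991 at 103 and 147 CPM, PSMB9 is lowest there at 7.47 CPM, and PSMB8 is lowest in SC at 18.5 CPM.

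B2M, the light chain shared by all class I molecules, varied little. It had 4540 reads (497 CPM) in DMSO, 4262 (468 CPM) in PD-0332991, 4394 (411 CPM) in SC and 5637 (498 CPM) in CDK4/6 knockdown. DMSO and CDK4/6 knockdown were level, with a fold of 1.00 (0.964 to 1.04), and the low library was SC. Against SC the fold of CDK4/6 knockdown was therefore 1.21 (1.17 to 1.26), and SC against DMSO gave 0.826 (0.793 to 0.862). PD-0332991 against DMSO gave 0.942 (0.903 to 0.982), which turned to 1.02 with quantile normalization and to 1.14 against SC.

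B2M also served as the reference gene of the RT-PCR in the study, so its spread was set beside 13 other genes in common use as references. From the lowest to the highest library B2M differed 1.21-fold, while GUSB differed 1.35-fold, PPIA 1.37-fold and RPLP0 1.38-fold. HPRT1 (2.59-fold) and ACTB (2.41-fold) had the widest spreads, and the median was 1.59 over the list and 1.58 over the 9229 genes that averaged 100 reads or more. The spread of B2M was 1.30 with total counts alone and also with quantile normalization. In CDK4/6 knockdown against SC, B2M was the only one of the 14 with a fold above 1 by TMM scaling, joined by RPLP0 under total counts alone and quantile normalization. GAPDH (0.660), ACTB (0.691) and HPRT1 (0.492) were among the 13 below 1. SIRT3 was among the genes measured against B2M by RT-PCR. In the libraries, SIRT3 reads divided by B2M reads gave 0.136 in DMSO, 0.125 in PD-0332991, 0.158 in SC and 0.149 in CDK4/6 knockdown. Its change was 0.943 (0.846 to 1.05) in CDK4/6 knockdown and 0.920 (0.812 to 1.04) in PD-0332991, while SIRT3 CPM without B2M gave folds of 1.14 (1.03 to 1.27) and 0.867 (0.771 to 0.975). SIRT3 was chosen after its values were seen.

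The 2 subunits of the peptide transporter parted in CDK4/6 knockdown, where TAP2 was lower than in both controls and TAP1 was not. TAP1 had 277, 286, 310 and 337 reads in DMSO, PD-0332991, SC and CDK4/6 knockdown, or 30.3, 31.4, 29.0 and 29.8 CPM. The folds of TAP1 lay close to 1, at 1.03 (0.878 to 1.20) in CDK4/6 knockdown, 1.04 (0.875 to 1.23) in PD-0332991 and 0.956 (0.810 to 1.13) for SC against DMSO, with intervals that reach 1.23 at most. TAP2 had 904, 828, 1088 and 866 reads, or 98.9, 90.9, 102 and 76.5 CPM. It was lower in CDK4/6 knockdown, at 0.753 (0.687 to 0.823) of SC and 0.773 (0.704 to 0.850) of DMSO, while PD-0332991 gave 0.919 (0.835 to 1.01). The 3′ part of TAP1 overlaps PSMB8-AS1 and a longer PSMB9 gene model on the opposite strand, and TAP2 overlaps AL669918.1 on its own strand. Whether the counting used strand is not given in the sources used here.

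TAPBP, which encodes tapasin, the bridge between TAP and the empty heavy chain, was high in PD-0332991 only. Its reads were 886 in DMSO, 1334 in PD-0332991, 1100 in SC and 1081 in CDK4/6 knockdown, or 97.0, 147, 103 and 95.5 CPM. The fold of PD-0332991 was 1.51 (1.39 to 1.65) to DMSO and 1.42 (1.31 to 1.55) to SC, and the other 3 libraries differed by less, with 0.929 (0.853 to 1.01) for CDK4/6 knockdown against SC and 1.06 (0.970 to 1.16) for SC against DMSO.

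PSMB8 and PSMB9 encode catalytic subunits of the immunoproteasome, the form induced by interferon, and each was low in a different library. PSMB8 had 330 reads (36.1 CPM) in DMSO, 331 (36.4 CPM) in PD-0332991, 198 (18.5 CPM) in SC and 264 (23.3 CPM) in CDK4/6 knockdown. It thus separated the 2 transfected libraries from the 2 others and not inhibited from control. SC against DMSO gave 0.513 (0.427 to 0.613), just inside 2-fold, and PD-0332991 against DMSO gave 1.01 (0.862 to 1.18). CDK4/6 knockdown was at 1.26 (1.04 to 1.52) of SC but at 0.646 (0.547 to 0.762) of DMSO, so the direction for PSMB8 rested on which control was used. Transfection and the other conditions of the siRNA arm cannot be told apart here.

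PSMB9 was the least counted member, with 134 reads (14.7 CPM) in DMSO, 68 (7.47 CPM) in PD-0332991, 133 (12.4 CPM) in SC and 124 (11.0 CPM) in CDK4/6 knockdown. The PD-0332991 library stood apart. Its fold to DMSO was 0.511 (0.375 to 0.687), just inside 2-fold, and to SC it was 0.602 (0.442 to 0.811). CDK4/6 knockdown gave 0.882 (0.684 to 1.13) against SC and SC gave 0.848 (0.662 to 1.09) against DMSO.

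**Figure D2:**
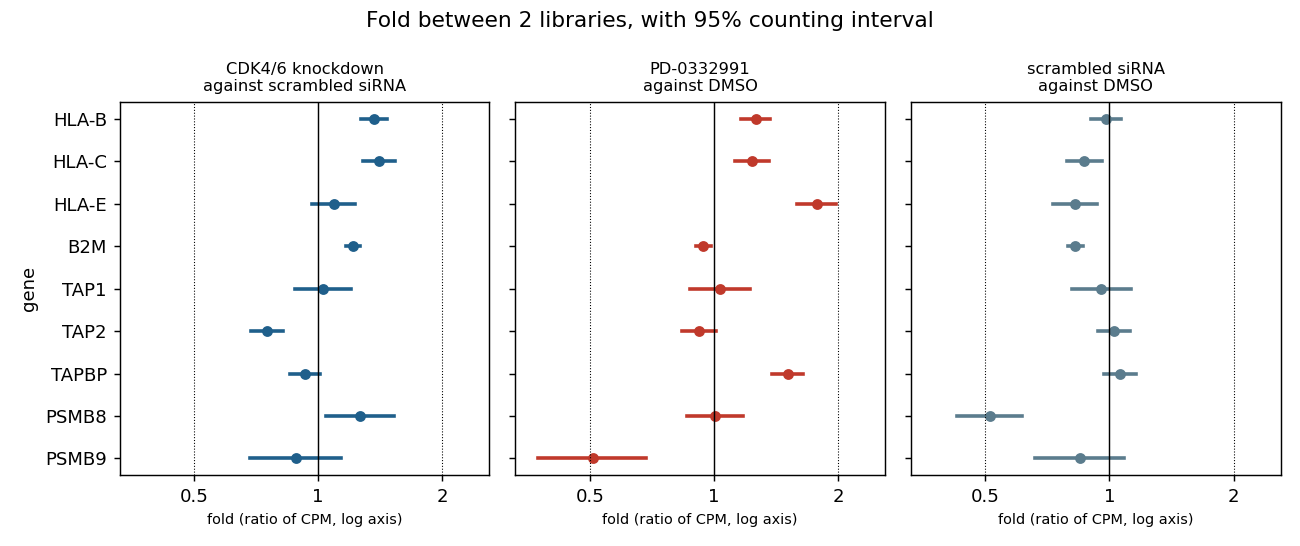
Fold of each gene (points) with its 95% counting interval (lines) in the 3 comparisons, on a log axis with a solid line at 1 and dotted lines at 0.5 and 2. No point passes 2-fold in either direction, and the points farthest from 1 are HLA-E (1.78) and PSMB9 (0.511) in PD-0332991 and PSMB8 (0.513) in SC against DMSO.

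By counts, the 9 genes showed no shared shift. All 9 passed the filter of 10 reads in either library in each comparison, and none was at least 2-fold higher or lower in any. In CDK4/6 knockdown against SC, 9.19% of 13617 genes were at least 2-fold higher and 7.62% lower. In PD-0332991 against DMSO the shares were 7.49% and 7.07% of 13443 genes, and in SC against DMSO 5.30% and 6.64% of 13303. At 1.5-fold, no member passed in CDK4/6 knockdown, beside 19.4% of genes higher and 17.4% lower. In PD-0332991, HLA-E and TAPBP passed 1.5-fold upward and PSMB9 downward, beside 16.8% and 15.1% of genes. In SC against DMSO, PSMB8 passed downward and none upward, beside 15.7% lower and 13.4% higher.

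By the interval, 4 members were above 1 in CDK4/6 knockdown (HLA-B, HLA-C, B2M and PSMB8) and TAP2 was below, beside 30.0% of all genes above and 31.9% below. Total counts alone moved the share of such genes that were above 1 from 48.5% to 58.7%. In PD-0332991, HLA-B, HLA-C, HLA-E and TAPBP were above 1 and B2M and PSMB9 below, beside 28.1% and 28.6%. In SC against DMSO no member was above 1 and HLA-C, HLA-E, B2M and PSMB8 were below, beside 28.3% above and 28.0% below. The members had a median log2 fold change of 0.13 in CDK4/6 knockdown, 0.051 in PD-0332991 and -0.20 in SC against DMSO, and that of all genes tested was -0.0036, 0.018 and 0.0088. Which of these medians lay farthest from 0 depended on the scaling, since quantile normalization gave 0.21 in CDK4/6 knockdown, 0.13 in PD-0332991 and -0.17 in SC against DMSO. The SC and DMSO libraries enter 2 comparisons each.

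Set against both controls at once, HLA-B and HLA-C were higher by CPM in both inhibited libraries, and TAP2 and PSMB9 were lower. Of 13099 genes, 20.9% were higher by this order and 21.8% lower. With all 4 intervals on 1 side of 1, HLA-B and HLA-C remained above, beside 7.44% of genes, and no member was below, beside 10.3%.

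Ratios of 2 genes within a library need no scaling between libraries. The reads of HLA-B, HLA-C and HLA-E summed to 0.524 of the B2M reads in DMSO, 0.763 in PD-0332991, 0.577 in SC and 0.629 in CDK4/6 knockdown. The change of the ratio was 1.45-fold (1.36 to 1.56) in PD-0332991 against DMSO, 1.09-fold (1.02 to 1.16) in CDK4/6 knockdown against SC and 1.10-fold (1.03 to 1.18) in SC against DMSO. All 3 heavy chains moved against B2M in PD-0332991, with changes of 1.34 for HLA-B, 1.32 for HLA-C and 1.89 for HLA-E. In CDK4/6 knockdown HLA-B (1.13) and HLA-C (1.16) moved the same way, while HLA-E gave 0.900 (0.793 to 1.02).

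TAP1 and PSMB9, whose promoters face away from each other across one short stretch, parted in PD-0332991. There were 2.07 TAP1 reads for each PSMB9 read in DMSO, 4.21 in PD-0332991, 2.33 in SC and 2.72 in CDK4/6 knockdown, a change of 2.03 (1.44 to 2.89) in PD-0332991 and of 1.17 (0.864 to 1.57) in CDK4/6 knockdown. TAP1 to TAP2 was 0.306, 0.345, 0.285 and 0.389 in DMSO, PD-0332991, SC and CDK4/6 knockdown, with a change of 1.37 (1.14 to 1.64) in CDK4/6 knockdown.

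Each immunoproteasome subunit takes the place of a constitutive one, PSMB8 that of PSMB5, PSMB9 that of PSMB6 and PSMB10 that of PSMB7. PSMB8 to PSMB5 was 0.0594 in DMSO, 0.0616 in PD-0332991, 0.0277 in SC and 0.0360 in CDK4/6 knockdown, so that SC held 0.467 (0.388 to 0.560) of the DMSO ratio. PSMB9 to PSMB6 was 0.0270, 0.0165, 0.0186 and 0.0194 in DMSO, PD-0332991, SC and CDK4/6 knockdown, a change of 0.609 (0.447 to 0.824) in PD-0332991 and of 0.688 (0.536 to 0.884) in SC against DMSO. PSMB10 to PSMB7 was 0.110, 0.0984, 0.0732 and 0.0703. The constitutive subunits were all higher in SC than in DMSO, at 1.10 (1.06 to 1.14) for PSMB5, 1.23 (1.19 to 1.28) for PSMB6 and 1.59 (1.51 to 1.67) for PSMB7. Of the 3 immunoproteasome subunits, PSMB8 was itself lower in SC, while the intervals of PSMB9 and of PSMB10 (1.05, 0.899 to 1.23) included 1, so the lower PSMB10 ratio in SC went with more PSMB7 reads and not with fewer PSMB10 reads.

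**Figure D3:**
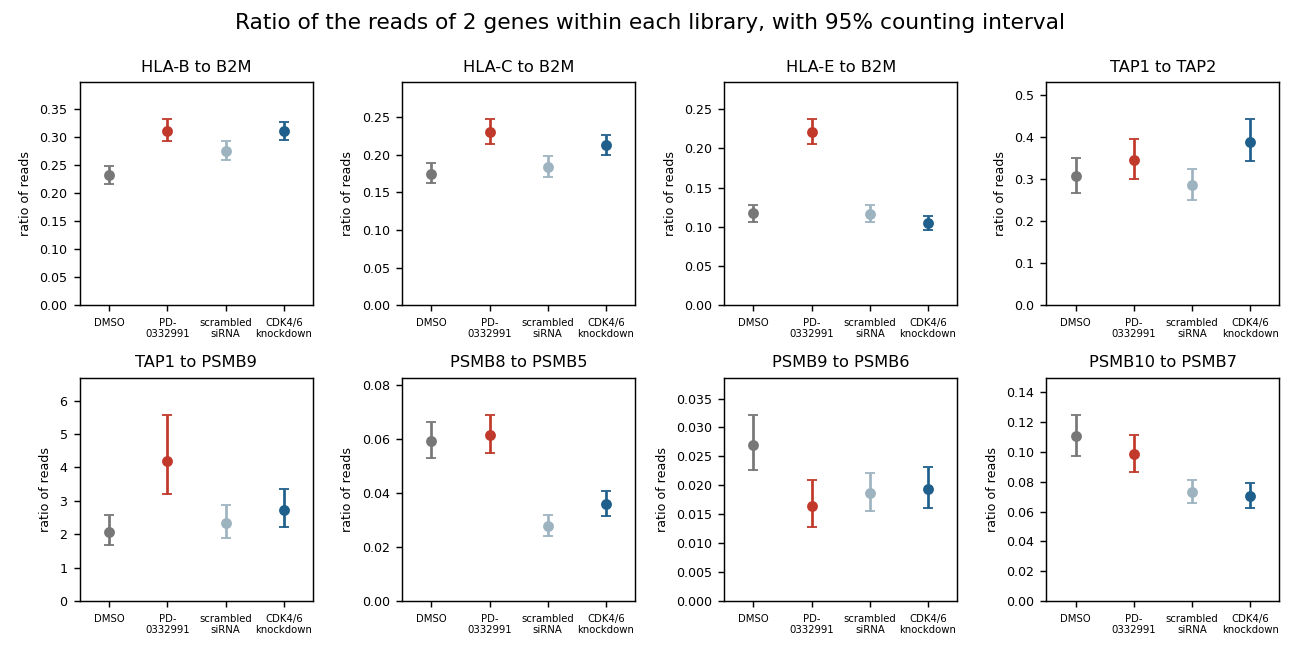
Ratio of the reads of 2 genes within each library (y axes from 0, 1 panel a pair), with 95% counting intervals. HLA-E to B2M is 0.221 in PD-0332991 and at most 0.117 elsewhere, TAP1 to PSMB9 is 4.21 in PD-0332991, and PSMB8 to PSMB5 is 0.0277 in SC and 0.0594 in DMSO.

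Among the other class I heavy chains, HLA-F had 17 to 24 reads a library and HLA-G at most 6 reads. HLA-H, a class I pseudogene, had 267 to 377 reads. No stretch of 75 bases in the last 500 bases of any member's main transcript occurs in a transcript of another gene in GENCODE 29, although the HLA alleles that HepG2 carries were not examined and can take reads from or give reads to another HLA gene.

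Of the 7 loading and trimming partners, CALR (calreticulin, a chaperone that holds the empty heavy chain with tapasin) was low in PD-0332991. It had 9360 reads in DMSO, 3763 in PD-0332991, 12962 in SC and 11332 in CDK4/6 knockdown. The folds of CALR were 0.403 (0.388 to 0.419) in PD-0332991 and 0.826 (0.806 to 0.848) in CDK4/6 knockdown. Against the other control, PD-0332991 gave 0.341, while CDK4/6 knockdown gave 0.977 with an interval that included 1. SC was itself at 1.18 (1.15 to 1.21) of DMSO for CALR. PDIA3, the disulfide isomerase of the same complex, gave 0.662 (0.621 to 0.705) in PD-0332991 and 1.18 (1.13 to 1.24) in CDK4/6 knockdown. In the PD-0332991 library TAPBP was therefore higher and CALR and PDIA3 lower than in DMSO. CANX (calnexin) was at 1.18 in PD-0332991 and 0.897 in CDK4/6 knockdown against the named controls and on the other side of 1 against the other control, at 0.789 and 1.35. The intervals of TAPBPL, ERAP1 and ERAP2 included 1 in both, and ERAP2 was lower in SC than in DMSO at 0.511 (0.366 to 0.704).

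Of the 8 proteasome partners tested, 1 had an interval above 1 and 5 below 1 in CDK4/6 knockdown against SC, beside 30.0% and 31.9% of all genes, but against DMSO 5 were above 1 and 1 was below. SC was the high library for PSMB7 (1.59 of DMSO) and POMP (1.45 of DMSO). In PD-0332991 against DMSO, 1 partner was above 1 and 3 were below, beside 28.1% and 28.6% of all genes. PSMB10 was at 0.728 (0.620 to 0.854) in CDK4/6 knockdown and 0.956 (0.808 to 1.13) in PD-0332991. PSME1 and PSME2, which form the interferon-induced PA28 cap, gave 1.22 (1.16 to 1.28) and 1.01 (0.958 to 1.06) in CDK4/6 knockdown, where PSME1 was at 1.00 against DMSO, and 1.05 (0.996 to 1.10) and 0.917 (0.866 to 0.971) in PD-0332991.

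Of the 17 regulators of class I transcription tested, 1 was at least 2-fold higher in CDK4/6 knockdown against SC, beside 9.19% of all genes. In PD-0332991 against DMSO it was again 1, beside 7.49%, so neither count stood above the share of all genes. The gene was NLRC5 in both. NLRC5 had 16 reads in DMSO, 45 in PD-0332991, 5 in SC and 31 in CDK4/6 knockdown, so the values rest on few reads. Its fold was 5.39 (2.26 to 19.3) in CDK4/6 knockdown against SC but 1.55 (0.830 to 3.06) against DMSO, and 2.77 (1.56 to 5.35) in PD-0332991. SC was at 0.287 (0.0765 to 0.762) of DMSO. IRF1, the interferon-induced activator, had 203, 317, 188 and 281 reads in DMSO, PD-0332991, SC and CDK4/6 knockdown. Its fold was 1.57 (1.31 to 1.88) in PD-0332991 and 1.41 (1.17 to 1.71) in CDK4/6 knockdown, or 1.12 (0.929 to 1.35) against DMSO. EZH2, a histone methyltransferase that can silence class I genes and an E2F target, was at 0.311 (0.277 to 0.347) in PD-0332991 and 0.771 (0.709 to 0.839) in CDK4/6 knockdown. Over the 17 genes the median log2 fold change was -0.11 in CDK4/6 knockdown and 0.043 in PD-0332991.

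**Figure D4:**
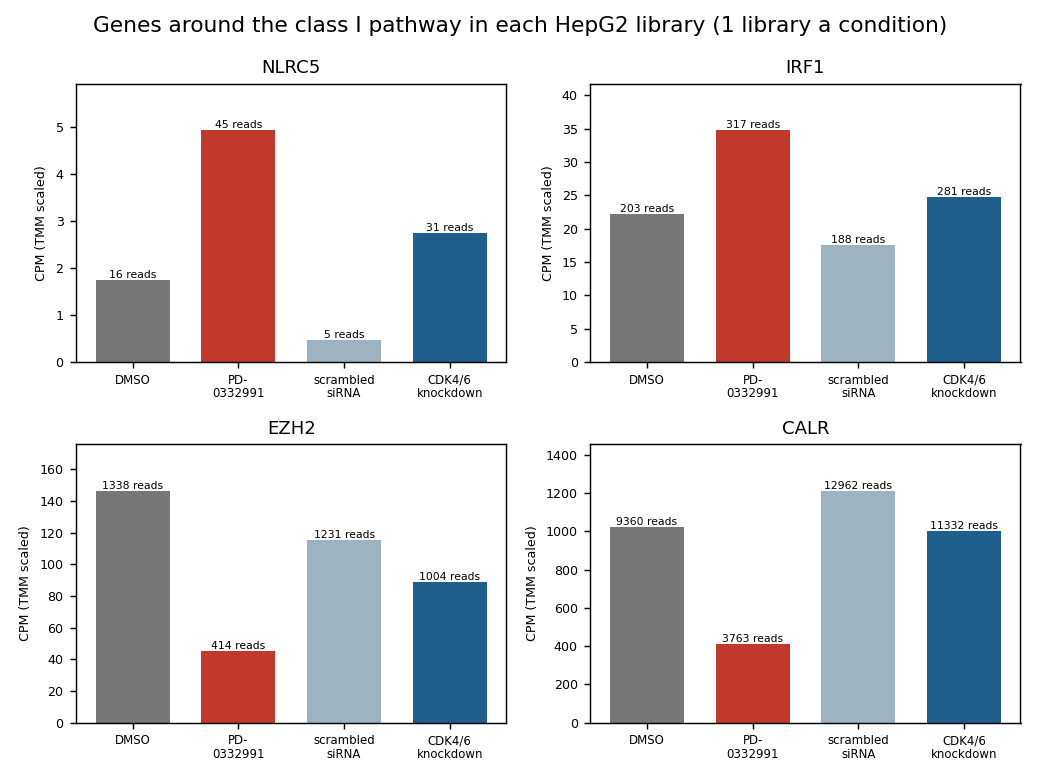
Level in CPM (y axes from 0, own scale a gene) of the regulators NLRC5, IRF1 and EZH2 and of CALR in the 4 libraries, with reads above the bars. NLRC5 and IRF1 are highest in PD-0332991 (45 and 317 reads) and NLRC5 is lowest in SC (5 reads), while EZH2 and CALR are lowest in PD-0332991.

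The 42 interferon-induced genes went both ways, with more folds above 1 than below, also between the control libraries. Of 31 tested in CDK4/6 knockdown against SC, 4 were at least 2-fold higher and 3 lower, beside 9.19% and 7.62% of all genes. There 18 folds were above 1 (all genes 49.7%), and the median log2 fold change was 0.21. By the interval, 11 were above 1 and 6 below, beside 30.0% and 31.9%. Of 32 tested in PD-0332991, 2 were higher and 1 lower, beside 7.49% and 7.07%. There 21 folds were above 1 (all genes 51.6%), with a median of 0.10. In CDK4/6 knockdown against DMSO, 22 of 30 folds were above 1 (all genes 50.2%). Between the controls, SC against DMSO, 16 of 30 were above 1 (all genes 50.7%), with a median of 0.085. IFIT1 was at 2.59 (1.54 to 4.72), BST2 at 1.54 (1.39 to 1.72) and OAS3 at 0.218 (0.171 to 0.273) in CDK4/6 knockdown, and ISG20 was at 2.11 (1.57 to 2.88) in PD-0332991. CXCL10, RSAD2 and OASL had no reads in any library. IFNGR1, a chain of the interferon gamma receptor, was at 43.3, 31.2, 16.9 and 43.5 CPM in DMSO, PD-0332991, SC and CDK4/6 knockdown. SC was thus its lowest library, as it was for HLA-B, HLA-C, HLA-E, B2M, TAP1 and PSMB8. TAP2 and TAPBP were lowest in CDK4/6 knockdown and PSMB9 in PD-0332991.

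The members differed from each other in their profile over the 4 libraries. By the Euclidean distance of log2 CPM centred over the libraries, TAP1 lay nearest to the median profile of the 9 genes (0.159) and PSMB9 farthest (0.892), with B2M at 0.202, HLA-C at 0.264, HLA-B at 0.321, TAPBP at 0.383, TAP2 at 0.458, PSMB8 at 0.636 and HLA-E at 0.658. The genes nearest to the median profile among the 9220 others that averaged 100 reads or more were SUV420H1 (0.0176), CCNY (0.0226), PREP (0.0261), ALKBH7 (0.0370) and CXXC1 (0.0399). Likeness over 4 libraries is a description of these libraries.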

How the data were processed

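HepG2 RNA from 4 cultures (DMSO, PD-0332991, scrambled siRNA and CDK4/6 knockdown, 1 library each) was sequenced with the QuantSeq 3′ kit as single-end 75-base reads. The tables deposited by the authors, 1 a library with 25737 entries, hold unnormalized counts of reads on each gene symbol. The submitters' processing notes name Bowtie2, edgeR and hg19 without versions, and the counter, the annotation and the use of strand are not given in the sources used here. Groups were taken from the sample labels.

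Counts of 286 repeated symbols were summed. TMM factors (edgeR 4.0.16, R 4.3.3) ran from 0.957 to 1.03. Folds were taken after adding 0.5 reads, in proportion to library size, for genes that reached 10 reads in 1 library of the comparison, and intervals are exact 95% Clopper-Pearson (scipy 1.17.1). The floor was 3 reads. A quasi-likelihood test needs replicates and was not made. The fold and interval code was tested on simulated data.

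The members and the 15 gene lists were chosen with earlier results of these data known. Named genes were all members, a set of partners of the pathway, every reference gene, up to 3 genes a list and comparison whose interval end nearest to 1 lay farthest from 1 (at least 50 summed reads) and the 5 nearest profiles. Of these, the genes nearest to the pathway are printed, and some genes of the lists are not reported here. SIRT3, HLA-H, the partners named for counts at or near 0 and the single keratinocyte, immune and fibroblast markers were named after their values were seen. Alternatives were DESeq2 1.42.0 size factors, total counts alone, quantile normalization (limma 3.58.1), a pseudocount of 5 reads, no filter, a filter of 50 reads, the most counted entry of a symbol, a threshold of 1.5-fold, the whole interval past 2-fold and the control library of the other arm. Those for the spread of B2M and for ratios were added after seeing the data. Gene models came from GENCODE 29 and promoters from RefSeq, both on GRCh38, and were not used to count reads.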

Additional observations from a re-analysis of the deposited data

How the results depend on the processing

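No paired analysis was possible because each condition had 1 library. For the same reason no library could be left out. With the other arm's control, 8 of 18 member folds left the main counting interval, and with the 3 other scalings 4 of 81 did. No other pseudocount or choice of entry moved any of 54, and the filters could not change a member's fold, since every member had more than 50 reads. The count of members at least 2-fold higher stayed 0 in CDK4/6 knockdown under every alternative run, and so did the count lower. In PD-0332991 against DMSO, the threshold of 1.5-fold gave 2 higher (HLA-E, TAPBP) and 1 lower (PSMB9), and the SC control gave 1 higher (HLA-E). In SC against DMSO, 1.5-fold gave 1 lower, and total counts alone also gave 1 lower (PSMB8). The PD-0332991 median log2 fold change moved to 0.37 against SC, and the CDK4/6 knockdown median was -0.026 against DMSO. The B2M spread was 1.30 under total counts alone and under quantile normalization. Total counts alone moved the median log2 fold change of all genes in CDK4/6 knockdown against SC by 0.10.

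Directions of members turned as follows. Against DMSO, the CDK4/6 knockdown folds of PSMB8 (0.646), HLA-E (0.900) and TAP1 (0.982) were below 1. In PD-0332991, B2M was at 1.14 against SC and 1.02 under quantile normalization, and PSMB8 was at 0.998 under DESeq2 size factors. TAP2 in SC against DMSO was at 0.982 under total counts alone. The cause of these turns was not tested. Depth limits PSMB9 most, with 68 to 134 reads a library, and NLRC5 with 5 to 45.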

Other observations

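MHC class II genes were nearly silent in these HepG2 libraries. Of the 13 class II genes listed, 10 or 11 had no reads in each library and only CD74, the invariant chain, passed the filter. CD74 had 851 reads in DMSO, 1083 in PD-0332991, 1488 in SC and 1617 in CDK4/6 knockdown, and CIITA, the class II transactivator, had 2 reads in PD-0332991 and 0 elsewhere. The fold of CD74 was 1.28 (95% interval 1.17 to 1.40) in PD-0332991 against DMSO, 1.03 (0.957 to 1.10) in CDK4/6 knockdown against SC and 1.49 (1.37 to 1.63) in SC against DMSO. Against SC, the CD74 fold of PD-0332991 was 0.855.

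Of the class I-like chains that pair with B2M, FCGRT, which encodes the neonatal Fc receptor, had 976 reads in DMSO, 1653 in PD-0332991, 1055 in SC and 1403 in CDK4/6 knockdown, with folds of 1.70 (1.57 to 1.84) in PD-0332991 and 1.26 (1.16 to 1.36) in CDK4/6 knockdown. MR1, which presents vitamin B metabolites, had 108 reads in DMSO and 181 to 220 in the other 3 libraries, so its fold of 1.68 in PD-0332991 against DMSO became 0.967 against SC. CD1D had no reads in any library.

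Among the genes of class I turnover, RAB5A was at 0.483 (0.428 to 0.543) in CDK4/6 knockdown against SC and at 0.769 (0.671 to 0.881) against DMSO, with 443 reads in DMSO, 550 in PD-0332991, 827 in SC and 422 in CDK4/6 knockdown.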
